A study of Mus musculus with 6 samples.

Results

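The enzymes of the tricarboxylic acid (TCA) cycle were examined in epididymal white adipose tissue (WAT) of mice under timed sleep restriction (TSR). All probe sets annotated to exactly 1 of Cs, Idh3a, Idh3b, Idh3g, Ogdh, Suclg1, Suclg2, Fh1 and Mdh2 were taken, which gave 16 probe sets of 9 genes among the 22626 probe sets that are not array controls, which name 12393 genes singly. In all 6 samples, epididymal WAT of male C57BL/6 mice aged 9 to 11 weeks had been collected at Zeitgeber time (ZT, hours after lights on) 18 and hybridised to Affymetrix mouse expression arrays, 1 array per sample. The 3 TSR samples came from wild-type mice kept awake by gentle handling from ZT 0 to ZT 6, 6 hours per day, for 5 days, and were taken on the last of these days. The 3 control samples came from undisturbed mice of the same strain and age, collected at the same hour. Whether each array held RNA of a single animal or of a pool is not given in the sources used here, so the p-values measure the spread between these arrays.

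The TCA cycle runs in the mitochondrial matrix. It oxidises acetyl groups that enter from pyruvate, fatty acids and amino acids, and hands the electrons to the respiratory chain. In white adipocytes it also supplies citrate, which leaves the mitochondrion and feeds fatty acid synthesis, and intermediates for the glycerol that holds fatty acids in triglyceride. Citrate synthase (Cs), NAD-dependent isocitrate dehydrogenase (IDH3, built of the subunits Idh3a, Idh3b and Idh3g) and the 2-oxoglutarate dehydrogenase complex (with Ogdh as its first enzyme) catalyse the irreversible steps of the cycle. Succinyl-CoA ligase (Suclg1 with Suclg2 or Sucla2), succinate dehydrogenase (Sdha to Sdhd), fumarase (Fh1) and malate dehydrogenase (Mdh2) complete it.

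The data were MAS5 signals, a brightness per probe set that the authors had scaled to a common trimmed mean on each array. Values below are signals, or log2 fold changes of TSR over control, and a probe set was called at an adjusted p under 0.05 (limma across all 14707 probe sets above a filter on low signals, with Benjamini-Hochberg adjustment). All 16 probe sets passed the filter. Signals of different probe sets are not read as relative transcript levels, because brightness depends on the probe.

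After TSR, transcripts of Idh3a, Ogdh and Cs (by 2 of 3 probe sets) rose, those of Suclg1, Suclg2 and Fh1 were not called, and 1 probe set each of Idh3b, Idh3g and Mdh2 fell slightly. Of the 16 probe sets, 6 were called higher, 3 lower and 7 neither. None of the 16 reached a 2-fold difference, which 3.42% of all probe sets tested did while being called. Among all probe sets tested, 25.6% were called higher, 21.0% lower and 46.6% in either direction, so calls were about as common among the TCA probe sets as on the whole array. The median log2 fold change was 0.03 over the 16 probe sets and 0.04 over all probe sets tested. The 3 control and the 3 TSR signals did not overlap for 9 of the 16 probe sets, 6 with TSR above and 3 with TSR below, against 56.6% of all probe sets tested (31.4% above and 25.2% below). With quantile normalization 7 probe sets were called higher and none lower, against 21.1% higher, 23.0% lower and 44.1% in either direction on the whole array, so the 3 lower calls depended on how the arrays were scaled. With the median of each array set equal, 5 were called higher and 3 lower, against 18.2% higher, 28.8% lower and 47.0% in either direction. The methods' t-test with the same adjustment called 6 of the 16, whether on linear or on log2 signals, against 35.5% and 34.9% of all. The decreases are given with their values under that scaling below.

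**Figure D1:**
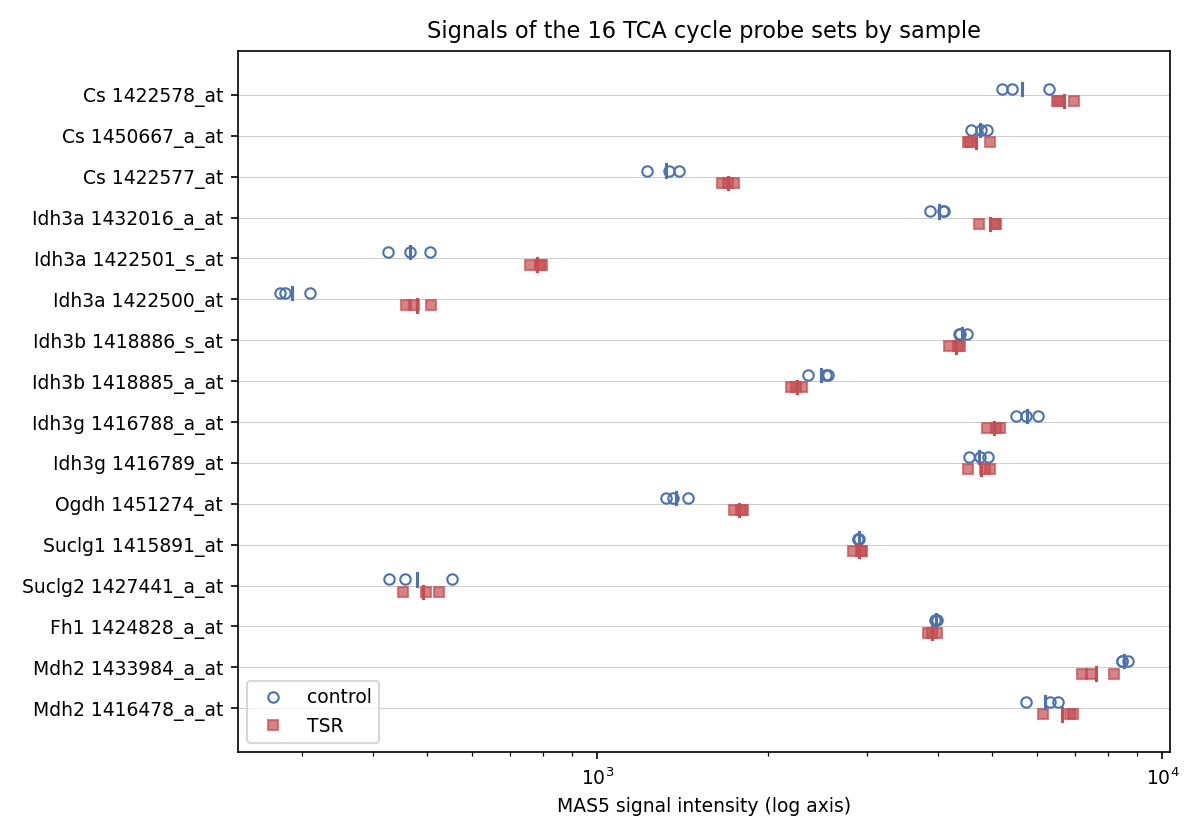
MAS5 signal (log axis) of the 16 TCA probe sets on each array, with open circles for the 3 control arrays and filled squares for the 3 TSR arrays and vertical lines for the group means. The TSR signals of Idh3a, Ogdh and 1422577_at and 1422578_at of Cs lie above every control signal, and those of Suclg1, Suclg2 and Fh1 overlap with control.

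Idh3a encodes the catalytic subunit of IDH3 and held the largest differences among the 16 probe sets. The probe set 1422501_s_at read 506, 465 and 425 on the control arrays and 791, 799 and 759 on the TSR arrays. The lowest TSR signal was far above the highest control signal, and the log2 fold change was 0.75 (SE 0.07, adjusted p = 4.88e-05, limma). The probe set 1422500_at read 280, 274 and 311 in control and 459, 507 and 473 in TSR. Its log2 fold change of 0.74 (95% interval 0.57 to 0.91) was close to that of 1422501_s_at. The brightest probe set, 1432016_a_at, read 3877, 4100 and 4097 in control and 5058, 5073 and 4727 in TSR. Here too the groups did not overlap, but the log2 fold change was 0.30 (95% interval 0.19 to 0.41), and this interval lies below those of the other two probe sets. All 3 Idh3a probe sets stayed called in the same direction under every alternative run, with adjusted p of at most 0.014.

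Idh3b and Idh3g encode the other subunits of IDH3, of which Idh3g serves regulation. Idh3b was read by a pair of probe sets. The brighter one, 1418886_s_at, lay between 4190 and 4505 on all 6 arrays with overlapping groups (log2 fold change -0.04, 95% interval -0.13 to 0.06). The probe set 1418885_a_at read 2361, 2536 and 2554 in control and 2297, 2205 and 2251 in TSR. All 3 TSR signals were below all control signals, by a small margin, with a log2 fold change of -0.14 (SE 0.05, adjusted p = 0.033, limma). This call was lost with quantile normalization (-0.10, adjusted p = 0.084) and without control array 2, control array 3 or any single TSR array (adjusted p 0.063 to 0.099).

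For Idh3g, 1416788_a_at read 5740, 6011 and 5500 in control and 5072, 5166 and 4882 in TSR. The groups did not overlap, and the log2 fold change was -0.19 (SE 0.05, adjusted p = 0.012, limma). It stayed called when any single array was left out (adjusted p at most 0.041), but it was -0.07 and not called with quantile normalization (adjusted p = 0.13). The second probe set, 1416789_at, ranged from 4551 to 4910 in control and from 4523 to 4946 in TSR, with a log2 fold change of 0.01 (95% interval -0.10 to 0.13). The Idh3g probe sets thus gave different answers for the same gene.

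Because the subunits of IDH3 are read on the same array, their difference on the log2 scale does not depend on the factor that scales an array. Idh3a minus Idh3b, by the brightest probe set of each and relative to the control mean, was -0.04, 0.00 and 0.04 in control and 0.34, 0.36 and 0.31 in TSR. Idh3a minus Idh3g was -0.05, -0.04 and 0.09 in control and 0.51, 0.49 and 0.47 in TSR. In both, the TSR arrays agreed closely with each other and lay above all control arrays (mean 0.34 ± 0.03 and 0.49 ± 0.02, SD, n = 3, exact permutation p = 0.1, two-sided, the smallest p that 3 arrays against 3 allow). Over the 3 probe sets of Idh3a and the 4 of Idh3b and Idh3g there are 12 such pairs. In all 12 the groups did not overlap, and the mean difference ran from 0.29 to 0.94 (0.28 to 0.79 after quantile normalization). This comparison was chosen after the values had been seen, and the 12 pairs share their probe sets.

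**Figure D2:**
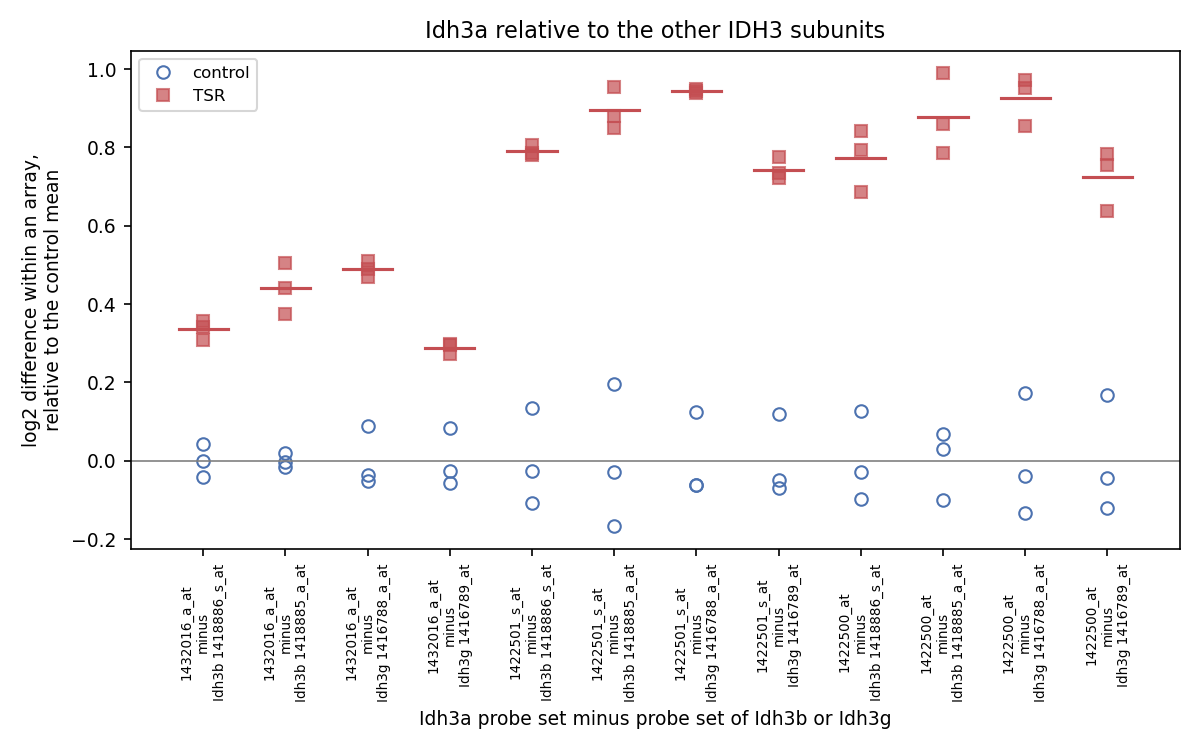
log2 difference within an array between each Idh3a probe set and each Idh3b or Idh3g probe set, relative to the mean of the control arrays. Open circles are the 3 control arrays, filled squares the 3 TSR arrays and bars the TSR means, which lie between 0.29 and 0.94, above every control array in all 12 pairs.

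Cs, whose product joins acetyl-CoA to oxaloacetate and so opens the cycle, was read by 3 probe sets. The probe set 1422577_at read 1226, 1340 and 1394 in control and 1704, 1745 and 1660 in TSR. The groups were well apart, with a log2 fold change of 0.37 (SE 0.06, adjusted p = 0.00074, limma). The brightest probe set, 1422578_at, read 5413, 6309 and 5196 in control and 6982, 6559 and 6503 in TSR. Control array 2 came close to the TSR arrays, and the log2 fold change was 0.25 (SE 0.07, adjusted p = 0.021, limma). This call was lost without control array 1, control array 3 or TSR array 1 (adjusted p 0.072 to 0.081), while with quantile normalization the log2 fold change was 0.41 (adjusted p = 0.00061). The remaining probe set, 1450667_a_at, read 4578, 4889 and 4771 in control and 4532, 4942 and 4573 in TSR. These groups overlapped throughout (log2 fold change -0.02, 95% interval -0.13 to 0.09).

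Ogdh encodes the decarboxylating enzyme of the 2-oxoglutarate dehydrogenase complex and was read by 1 probe set. It read 1361, 1448 and 1323 in control and 1813, 1741 and 1793 in TSR. The mean rose from 1377 ± 64.0 to 1783 ± 37.1 (SD, n = 3), with no overlap. The log2 fold change was 0.37 (SE 0.05, 95% interval 0.26 to 0.48, adjusted p = 0.00031, limma), and it stayed called under every alternative run.

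The promoters of Ogdh, which rose, and of Cs, which rose by 2 of its 3 probe sets, are shown. Each window is the 250 bases before an annotated start in the RefSeq table of GRCm38.p6, printed on the strand of the gene, with matches to 5 short motifs in capitals on either strand. The letters searched were CACGTG (E-box), TGACGTCA (cAMP response element), TCAAGGTCA (oestrogen-related receptor element), CCAAT (named after its letters) and, for the GC box, GGGCGG, and none of the matches shown overlaps another. The Cs window lies at chr10:128337477-128337726 (+ strand). Ogdh has 6 windows, of which those at chr11:6291347-6291596 and chr11:6291920-6292169 (+ strand) are shown.
Cs: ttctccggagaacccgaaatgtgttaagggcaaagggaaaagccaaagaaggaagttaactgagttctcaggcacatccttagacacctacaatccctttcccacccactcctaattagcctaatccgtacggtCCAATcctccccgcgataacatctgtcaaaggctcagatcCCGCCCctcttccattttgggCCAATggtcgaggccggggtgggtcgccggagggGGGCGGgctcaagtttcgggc
Ogdh upstream start: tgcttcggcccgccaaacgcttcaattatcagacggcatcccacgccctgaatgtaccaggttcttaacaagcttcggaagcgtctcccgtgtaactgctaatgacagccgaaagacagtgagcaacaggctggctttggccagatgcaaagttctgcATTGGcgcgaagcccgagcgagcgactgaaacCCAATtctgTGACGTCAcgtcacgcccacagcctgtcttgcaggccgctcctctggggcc
Ogdh downstream start: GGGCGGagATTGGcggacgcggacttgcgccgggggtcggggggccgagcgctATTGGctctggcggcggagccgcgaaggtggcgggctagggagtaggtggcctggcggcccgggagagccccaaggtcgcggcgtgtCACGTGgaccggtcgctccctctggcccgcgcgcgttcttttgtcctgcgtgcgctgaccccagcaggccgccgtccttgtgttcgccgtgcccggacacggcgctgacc

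Of the 9 genes 8 had a window and Idh3a had none. A gene was counted if any of its windows held the letters, and 6 of the 13 windows were of Ogdh. The percentages below are shares of single windows. The cAMP response element was found for Ogdh, beginning 51 bases before the upstream start, and for Mdh2, and in 1.55% of all 32851 windows. The E-box was found for Ogdh only, beginning 110 bases before the downstream start shown, and in 6.02% of all windows. The CCAAT box was found for Cs, Fh1, Idh3b, Ogdh and Suclg2 and in 33.8% of all windows, and the GC box for Cs, Fh1, Mdh2, Ogdh and Suclg2 and in 32.7%. The oestrogen-related receptor element was in none of the 8 genes' windows and in 0.387% of all windows. These matches describe letters in the windows, and no binding was measured.

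Suclg1, Suclg2 and Fh1 were not called. Suclg1, the shared alpha subunit of succinyl-CoA ligase, read between 2893 and 2908 in control and between 2830 and 2941 in TSR. Its log2 fold change was 0.00 (95% interval -0.09 to 0.09). Suclg2, the GTP-forming beta subunit, ranged from 428 to 554 in control and from 453 to 525 in TSR (log2 fold change 0.04, 95% interval -0.19 to 0.27). Fh1, which hydrates fumarate to malate, ranged from 3959 to 3994 in control and from 3844 to 3986 in TSR, and its interval of -0.11 to 0.07 was as narrow as that of Suclg1. For Suclg1 and Fh1 these intervals leave room for only small differences in either direction, under the MAS5 scaling. With median centring Suclg1 was at -0.091 and Fh1 at -0.112, just below the lower limits of these intervals, and neither was called.

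Mdh2 regenerates oxaloacetate from malate. The brighter of its probe sets, 1433984_a_at, read 8488, 8674 and 8469 in control and 7481, 8200 and 7198 in TSR. All TSR arrays were below control, with TSR array 2 nearest to it, and the log2 fold change was -0.17 (SE 0.06, adjusted p = 0.037, limma). The other, 1416478_a_at, read 6324, 6520 and 5743 in control and 6865, 6941 and 6153 in TSR, overlapping, with a log2 fold change of 0.10 (95% interval -0.05 to 0.25). The signs of the Mdh2 probe sets were thus opposite. The decrease was lost without any single array other than TSR array 2 (adjusted p 0.074 to 0.12), and with quantile normalization 1433984_a_at turned to 0.07 (adjusted p = 0.18) while 1416478_a_at was called at 0.28 (adjusted p = 0.0015). No direction can therefore be given for Mdh2.

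**Figure D3:**
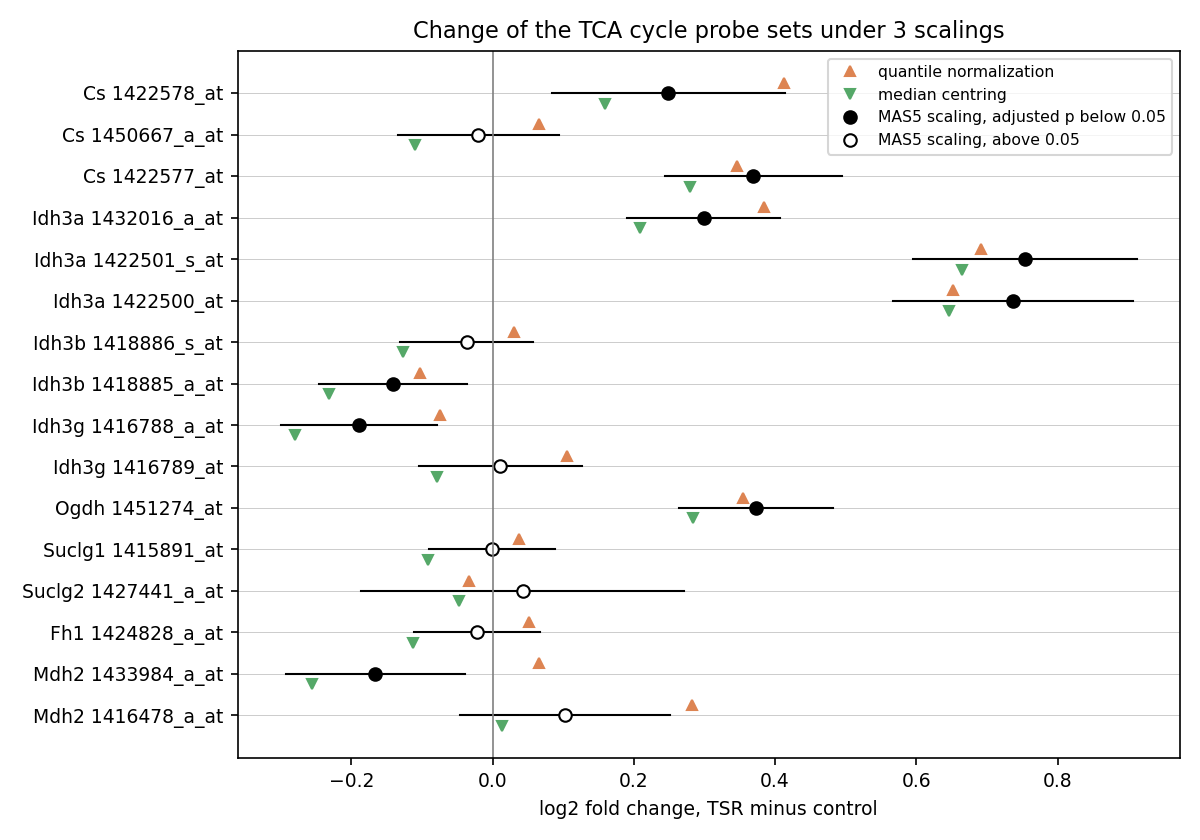
log2 fold change of TSR over control for the 16 TCA probe sets, with the 95% interval from limma as a line and filled circles where the adjusted p is under 0.05. Upward triangles give the value after quantile normalization and downward triangles after median centring. The 3 Idh3a probe sets, Ogdh and 2 of the 3 Cs probe sets lie above 0, and the intervals of Suclg1, Suclg2 and Fh1 span 0.

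Brighter probe sets tended to have lower log2 fold changes. Over the 16 probe sets, Spearman's rho between mean log2 signal and log2 fold change was -0.53, and over all probe sets tested it was -0.14. These are descriptions across probe sets, which share arrays and, in part, genes. Among the 5 genes with more than 1 probe set, the dimmest lay above the brightest in 4, by up to 0.44, as it did in 69.2% of 3236 such genes on the whole array (median difference 0.16). Counted by the brightest probe set alone, 3 of the 9 genes were called higher (Cs, Idh3a and Ogdh), 2 lower (Idh3g and Mdh2) and 4 neither, against 24.0% higher, 23.0% lower and 47.0% in either direction of 8619 genes.

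Further enzymes and subunits of the cycle analysed were Idh2, Dlst, Dld, Sucla2 and Sdha to Sdhd, each read by its brightest probe set. Of these 8 genes 5 were called higher, none lower and 3 neither, against 24.0% higher and 23.0% lower of all genes. Their median log2 fold change was 0.19. The partners of Ogdh in the 2-oxoglutarate dehydrogenase complex both rose. Dld, its shared dihydrolipoyl dehydrogenase, read 1469, 1529 and 1522 in control and 1949, 1855 and 1938 in TSR (log2 fold change 0.34, adjusted p = 0.00027, limma). Dlst, its succinyltransferase, read 1785, 1707 and 1655 in control and 1876, 2186 and 2067 in TSR (log2 fold change 0.25, adjusted p = 0.0096, limma). By the brightest probe set of each, all 3 components of that complex were thus higher on every TSR array than on any control array. The same held for 31.4% of all probe sets tested. The Dlst call was lost with median centring (adjusted p = 0.057, limma). It was also lost by the methods' t-test (adjusted p = 0.070 on linear and 0.064 on log2 signals). Idh2, the NADP-dependent mitochondrial isocitrate dehydrogenase, read 1299, 1253 and 1225 in control and 1484, 1558 and 1572 in TSR (log2 fold change 0.29, adjusted p = 0.0011, limma).

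Within succinate dehydrogenase the subunits differed in their calls under the MAS5 scaling. The membrane anchors Sdhc and Sdhd rose by 0.22 and 0.17 on the log2 scale (adjusted p = 0.012 and 0.021, limma). A dim second probe set of Sdhd gave -0.01. The flavoprotein Sdha and the iron-sulphur subunit Sdhb were not called, with log2 fold changes of -0.01 and -0.03. Sucla2, the ATP-forming beta subunit of succinyl-CoA ligase, was also not called and lay at 0.00, as Suclg1 did. The Sdhd call was lost without control array 1 or 3 or TSR array 1 or 2 (adjusted p 0.051 to 0.071, limma). With quantile normalization Sdha was called as well (0.11, adjusted p = 0.023, limma), beside Sdhc and Sdhd. Sdhb was then at 0.087 and not called (adjusted p = 0.089, limma). With median centring of the arrays 2 of the 8 genes, Idh2 and Dld, were called higher, against 18.2% of all probe sets.

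Transcripts that deliver pyruvate to the cycle rose together with Ogdh and Cs. The 3 genes of the pyruvate dehydrogenase complex that were measured were all called higher, against 24.0% of all genes. By the brightest probe set of each, Pdhb rose by 0.46, Pdha1 by 0.33 and Dlat by 0.29 on the log2 scale. All 3 were also called higher with quantile normalization and with median centring, against 21.1% and 18.2% of all probe sets. The paper lists another Pdha1 probe set among those that rose at least 2-fold. Of 14 genes that connect the cycle with other pathways, 5 were called higher and 3 lower (median 0.01), against the 24.0% higher and 23.0% lower of all genes. With quantile normalization these counts were 5 and 1 (median 0.13) and with median centring 4 and 5 (median -0.08). Acly, which splits exported citrate for fatty acid synthesis, rose by 1.20 from 4378, 4494 and 4340 to 10359, 10886 and 9173. Slc25a10, the mitochondrial dicarboxylate carrier, and Me1, the cytosolic malic enzyme, rose by 0.86 and 0.82. Pck1, which takes oxaloacetate towards glycerol, fell from 4088, 3886 and 4474 to 2130, 1776 and 2020, a log2 fold change of -1.07 (adjusted p = 1.03e-05, limma). The log2 fold changes of Acly, Slc25a10, Me1 and Pck1 were larger in size than that of any of the 16 TCA probe sets.

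The respiratory chain, which takes up the electrons of the cycle, did not follow Idh3a, Ogdh and Cs. Of 65 genes 2 were called higher and 36 lower, with a median of -0.17, against 24.0% higher and 23.0% lower of all genes. Cox6a1, Ndufa1, Ndufb3 and Uqcrb had the largest decreases, between -0.41 and -0.37. These counts depended on the scaling. With quantile normalization 11 were called higher and 15 lower (median -0.03), against 21.1% and 23.0% of all probe sets. Cox6a1 and Uqcrb were then no longer called. With median centring none was called higher and 45 lower, against 18.2% and 28.8% of all probe sets. Of 16 genes of mitochondrial import and structure 5 were called higher and 2 lower (median 0.11), against 24.0% and 23.0% of all genes. They were led by Tomm40 of the outer membrane channel at 0.69, Immt at 0.32 and Tomm22 at 0.28, with Vdac1 at -0.18. The Vdac1 call was lost without control array 2 or TSR array 1 or 3 (adjusted p 0.053 to 0.068, limma). With quantile normalization 8 of the 16 genes were called higher and none lower, and with median centring 2 higher and 4 lower. A difference between these lists and the TCA enzymes was not tested.

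**Figure D4:**
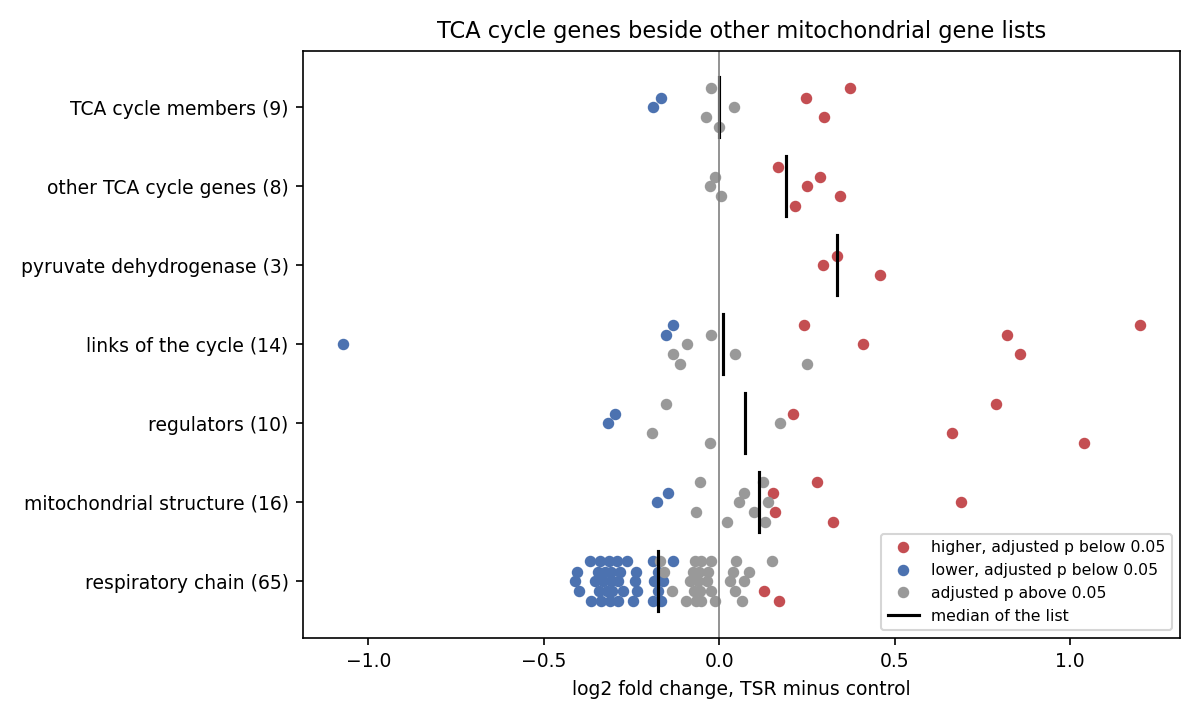
log2 fold change of TSR over control by the brightest probe set of each gene, 1 point per gene, for the TCA enzymes and the related gene lists, with the median of each list as a bar. Red points were called higher, blue points lower and grey points neither. The respiratory chain lies mostly below 0 (median -0.17) and the other TCA genes mostly above (median 0.19).

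Regulators of mitochondrial genes were also read. Ppargc1a, a coactivator of oxidative genes, read 153, 178 and 172 in control and 350, 338 and 344 in TSR (log2 fold change 1.04, adjusted p = 2.45e-05, limma). The groups were far apart and narrow, and 4 of its 5 probe sets were called higher. Esrra, the nuclear receptor it works with, read 414, 422 and 401 in control and 835, 638 and 679 in TSR, a log2 fold change of 0.79. The related coactivator Pprc1 rose by 0.66, whereas Tfb1m, a methyltransferase of mitochondrial ribosomal RNA, fell by 0.32, a call lost without control array 1 or 3 or TSR array 1 or 2 (adjusted p 0.064 to 0.082). Of the 10 regulators 4 were called higher and 2 lower, against 24.0% and 23.0% of all genes. The log2 fold change of Ppargc1a was larger than that of any of the 16 TCA probe sets.

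The genes whose 6 values most resembled those of the brightest Cs probe set were Sgk3, Atp9a, Srd5a3, Extl3 and Dpagt1. Their root mean square distance from Cs over the 6 arrays ran from 0.020 to 0.037 on the log2 scale. No TCA enzyme was among them. With so few genes named out of all those tested, this absence cannot show whether other TCA enzymes moved with Cs.

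The arrays separated by group. Pearson's r of log2 signals over the probe sets tested was 0.991 to 0.993 within a group and 0.962 to 0.965 across groups. Adipocyte markers were bright on all arrays, with Fabp4 between 15582 and 24462. Of 12 tested 5 were called higher and 6 lower, against 24.0% and 23.0% of all genes, shares that apply to each marker list below. With quantile normalization 7 of the 12 were called higher and none lower. Read by its brightest probe set, Fabp4 then changed from -0.43 to -0.08 and was no longer called (adjusted p = 0.16, limma). The paper lists another Fabp4 probe set among those that fell at least 2-fold. Slc2a4, the insulin-responsive glucose transporter, rose by 1.04 on the log2 scale. Most genes listed as markers of hepatocytes, cells that the tissue should lack, differed between the groups. Their summed signal in control, given below, was high while that of Alb was low, so the list does not read hepatocytes alone. Of 18 tested 16 were called higher and 1, Cyp2e1, lower, the latter not with quantile normalization (log2 fold change -0.06). The filter used the mean over all 6 arrays, so genes low in control could pass it through their TSR signals. Of the 27 measured, 9 were below the filter, and 26 had a higher mean signal in TSR whether tested or not. The median log2 fold change of the 18 was 3.49, 15 of them were called and differed at least 2-fold, and Serpina1c was highest at 5.47. The signals of the 27 measured, among which Cyp2e1 was the brightest, summed to between 24865 and 29073 in control and between 35054 and 39760 in TSR, and Alb, the defining one, lay between 98.0 and 161 in control and between 3077 and 3360 in TSR. The 11 skeletal muscle markers summed to between 613 and 687 in control and 2093 and 2172 in TSR, mostly Acta1 (log2 fold change 2.23), while 9 of them were below the filter. Of 10 macrophage markers 9 were called lower and none higher, with sums of 26426 to 27315 for 11 markers in control and 17824 to 18176 in TSR, and Mrc1 and Lyz2 at -0.95 and -0.52 on the log2 scale. Brown adipocyte markers were called higher in 4 of 6 (Ppargc1a is among them), with Ucp1 below the filter, and sums of 842 to 861 against 1367 to 1420. Dio2 was at 2.38 and Cox8b at 0.41. Of 8 endothelial markers 3 were called higher and 2 lower, from -0.50 to 0.65, with Tie1 at 0.65 and Cdh5 at 0.10 (adjusted p = 0.0020 and 0.19, limma). Their sums overlapped. In tissue of mixed cells, fewer cells of a type and less RNA per cell cannot be told apart.

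Some control probe sets for RNA quality and labelling also differed between the groups. The log2 difference between the 5′ and 3′ control probe sets was -1.22 ± 0.01 in control and -0.67 ± 0.00 in TSR for beta-actin, and -0.52 ± 0.07 and 0.13 ± 0.05 for Gapdh (SD, n = 3, exact permutation p = 0.1 each, two-sided). For 18S ribosomal RNA the groups overlapped (-0.39 ± 0.04 and -0.46 ± 0.16). Among control probe sets for bacterial RNAs, which are not of the tissue, some differed too. One was dap (AFFX-DapX), at -4.10 ± 0.10 in control and -2.84 ± 0.12 in TSR, and lys, phe and thr differed in the same direction. Others did not: for bioD (AFFX-r2-Ec-bioD) the groups overlapped (-0.11 ± 0.04 and -0.14 ± 0.09). For bioC (AFFX-BioC) the direction was opposite (-0.23 ± 0.04 in control and -0.39 ± 0.06 in TSR). The part of these markers and of the control probe sets in the TCA values was not tested.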

How the data were processed

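Total RNA of epididymal WAT was hybridised to Affymetrix mouse arrays, 1 per sample. Per the labels the tissue was frozen and extracted with Trizol, whereas the study's methods name RNAlater and a lipid tissue kit. The authors computed MAS5 signals, and the deposited table holds these as linear intensities, with no log taken. The mean of the middle 96% of signals was 500.2 on every array and the median 127 to 141. The number of arrays limits the precision. No genome build is named in the files.

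Probe sets were named from GEO's platform annotation, in which 20393 of 22690 have 1 symbol, 691 several genes and 1606 none. By gene ID 20364 matched the RefSeq gene table and no symbol changed. None of the members' probe sets names a second gene. Samples were grouped by title. After removal of 64 array controls, probe sets in the bottom 35% by mean log2 signal (5.45 or less) were not tested, which left 14707. Log2 signals were fitted with limma 3.58.1 (R 4.3.3; lmFit, eBayes with intensity trend), TSR against control, two-sided, adjusted by Benjamini-Hochberg over all probe sets tested. Single values were compared by an exact permutation test. On simulated data of 14707 probe sets for this comparison, 46 of 100 changes of 0.5 and 84 of 100 of 1 on the log2 scale were recovered, with 3 false calls. Only these probe sets changed in the simulation, far fewer than the 46.6% called in the data. The Benjamini-Hochberg adjustment was therefore stricter there, and these shares are not recovery rates for the data.

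All members and the 8 other TCA genes analysed were named. Of each further pathway list, up to 4 called genes with the largest absolute log2 fold change were named, of each marker list the brightest and the one that moved most (Alb and Ucp1 were added after their values were seen), and the 5 genes nearest to Cs. The members and the 13 lists were chosen with earlier results of these data known. The results were also computed by the methods' t-test (linear or log2 signals), by limma with no trend or with a replicate block, after median centring or quantile normalization of the arrays, with the filter dropped or raised to 50%, and with each array left out in turn. Where a gene of a list has several probe sets, the brightest was used.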

Additional observations from a re-analysis of the deposited data

How the results depend on the processing

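The increases of Idh3a (3 probe sets), Ogdh and Cs 1422577_at kept direction and call under every alternative run. The count of TCA probe sets called lower was 3, but 1 by both forms of the methods' t-test and by limma without the trend, 0 with quantile normalization, and 1 to 2 with 1 array left out (1 without control array 2 or 3 or TSR array 1 or 3). The count called higher was 5 to 7 under every setting. Shares of all probe sets were taken only for the main fit, quantile normalization, median centring and the methods' t-test. For the other settings the TCA counts stand without such a share. The methods' t-test found p under 0.05 for 9 TCA probe sets on linear and 8 on log2 signals, and for 6 after Benjamini-Hochberg adjustment in both. Cs 1422578_at was not called by that test (adjusted p = 0.10 and 0.11), without the trend (0.058) or with median centring (0.12). The median over the TCA probe sets was 0.086 with quantile normalization, -0.063 with median centring and -0.0093 to 0.089 with 1 array left out (0.089 without control array 2). These scalings moved the median of all probe sets by -0.05 and -0.09. Calls on the whole array were 3768 higher and 3082 lower, against 3099 and 3380 with quantile normalization and 2673 and 4236 with median centring. For the other TCA genes, 3 and 2 were called higher by the methods' t-test on linear and log2 signals and 2 with median centring, where their median was 0.10. The cause of these differences was not tested.

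Signs turned mainly for values near 0. With quantile normalization Cs 1450667_a_at was at 0.066, Idh3b 1418886_s_at at 0.030, Suclg1 at 0.038, Suclg2 at -0.033, Fh1 at 0.051, Mdh2 1433984_a_at at 0.065, Sdha at 0.11 (adjusted p = 0.023, limma) and Sdhb at 0.087. With median centring Idh3g 1416789_at was at -0.079, Suclg2 at -0.047 and Sucla2 at -0.086. With 1 array left out the range was -0.060 to 0.0030 for Cs 1450667_a_at, -0.017 to 0.050 for Idh3g 1416789_at, -0.012 to 0.016 for Suclg1, -0.034 to 0.15 for Suclg2, -0.00051 to 0.013 for Sucla2 and -0.043 to 0.013 for Sdha.

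Whether the replicate numbers pair the samples could not be decided, and the main fit used no pairing. In their deviations from the group means, same-numbered arrays correlated at 0.015, 0.19 and 0.17, and the other pairs at -0.22 to 0.058. For 2 of 3 TSR arrays the best match was the control array of their number. Deviations from a mean of 3 arrays are not independent of each other, so these values cannot settle it. With the replicate block 7 TCA probe sets were called higher and 3 lower, and the share of all probe sets called with it was not taken. Mdh2 1416478_a_at gained a call (adjusted p = 0.015, limma), and no other call of a TCA probe set changed.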
